A study of Homo sapiens with 8 samples.

Results

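The genes described here are 45 genes of the lysosome, the vacuolar proton pump (V-ATPase) and autophagy, taken by symbol from a list chosen by function. They are 45 of 18244 genes with a probe set that names 1 gene symbol on the arrays. Each was represented by its brightest such probe set, and all 45 were among the 11947 genes bright enough to test. Their mRNA was measured on 8 Affymetrix arrays, in 4 groups of 2, from SK-MEL-5, a long-established melanoma cell line. In the drug pair, cells received THZ1, a covalent inhibitor of the kinase CDK7, at 250 nM in 25 uM DMSO for 6 h, and the control cells received 25 uM DMSO, with no duration given. In the siRNA pair, cells were transfected with siRNA against MITF (siMITF) or with non-targeting control siRNA (siCtrl), with no time of harvest given. No other genotype or agent is named for any group, and all arrays come from this 1 line. Separate cultures for the 2 arrays of a group are not mentioned in the labels. The p-values therefore reflect only how far these arrays spread, and that spread may be technical.

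The lysosome is the acidic compartment in which cells break down proteins, lipids and sugars. The V-ATPase pumps protons into it: its V1 sector hydrolyses ATP in the cytosol and its V0 sector carries protons through the membrane. Autophagy delivers cytoplasm to the lysosome in vesicles marked by lipid-coupled ATG8 proteins. Many of these genes carry E-boxes that can be bound by TFEB, TFE3 and MITF, related basic helix-loop-helix factors, and in pigment cells the V-ATPase also serves the melanosome, an organelle related to the lysosome.

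The letters of these E-boxes are present in several of the promoters. RefSeq promoters (GRCh38.p14, 250 bases before to 50 after the annotated start) matched 34 of the 45 genes by symbol, and CACGTG, which reads the same on both strands, was found in 10 of the 34 (29.4%), against 10.2% of promoters of all tested genes and 7.43% of all 27305 promoters. The longer palindrome TCACGTGA, which contains CACGTG, was found in 6 (17.6%), against 1.99% of promoters of tested genes and 1.04% of all. CATGTG or CACATG, the core of the M-box on either strand, was found in 7 (20.6%), against 7.05% and 11.2%. By role, CACGTG was in 7 of 13 lysosomal, 3 of 9 V-ATPase and 0 of 12 autophagy promoters. These windows, upstream of the start, are shown because their genes include members that fell with siMITF beyond the median gene (ATP6V0B, ATP6V0D1, ATP6V1G1, CTSD, MCOLN1) and members that did not (GAA, LAMP1). Sequences run 5′ to 3′ on the gene's strand, and capitals mark each CACGTG.
ATP6V0D1, chr16:67481189-67481238, minus strand: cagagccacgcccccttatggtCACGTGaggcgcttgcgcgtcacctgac
ATP6V1G1, chr9:114587689-114587738, plus strand: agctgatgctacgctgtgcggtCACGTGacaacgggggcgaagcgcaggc
ATP6V0B, chr1:43974881-43974948, plus strand: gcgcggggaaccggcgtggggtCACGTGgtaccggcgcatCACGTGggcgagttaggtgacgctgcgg
MCOLN1, chr19:7522561-7522623, plus strand: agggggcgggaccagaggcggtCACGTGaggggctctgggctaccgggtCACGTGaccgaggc
CTSD, chr11:1763947-1763996, minus strand: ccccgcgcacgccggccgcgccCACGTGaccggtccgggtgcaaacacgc
GAA, chr17:80101483-80101577, plus strand: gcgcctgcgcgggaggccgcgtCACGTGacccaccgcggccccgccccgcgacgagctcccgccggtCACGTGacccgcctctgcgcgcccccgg
LAMP1, chr13:113297025-113297124, plus strand: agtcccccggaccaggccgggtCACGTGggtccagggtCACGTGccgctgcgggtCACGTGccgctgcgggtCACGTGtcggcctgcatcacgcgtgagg
The LAMP1 promoter held 6 matches in all, GAA, MCOLN1 and ATP6V0B 2 each, and ATP6V0D1, ATP6V1G1 and CTSD 1 each. A match is a string of letters and was not tested as a binding site. CACGTG was present in 5 of 15 promoters of members lower with siMITF on the relative scale, in 1 of 5 of those higher and in 4 of 14 of those that passed in neither direction.

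Every change is given on 2 scales. Per the series' design text the deposited signals are scaled by the number of cells, and a change in them is called per cell. The relative scale sets each array to the median gene, because on some arrays most genes were shifted the same way from the group's other array. Log2 changes are of the signal plus 16, and a gene was called at a limma adjusted p under 0.05 over all tested genes. The median array signal over all probe sets was 61.3 and 76.1 with DMSO, 51.1 and 67.6 with THZ1, 51.1 and 59.3 with siCtrl, and 40.1 and 32.5 with siMITF. ERCC spike-in probe sets had median signals of 48.0 to 53.9 on the drug-pair arrays and 27.6 to 30.7 on the siRNA-pair arrays, so levels were not compared between the pairs. The knockdown was visible in the targeted gene: MITF had signals of 1747 and 1168 with siMITF against 3436 and 3936 with siCtrl. With THZ1 it had 3311 and 4178 against 4670.2 and 5669 with DMSO, a relative change of -0.27 (adjusted p = 0.0497). The per-cell change of MITF with THZ1 was -0.47 and did not pass (adjusted p = 0.28). All 6 melanocytic markers with a probe set passed the signal filter, and 0 of 3 keratinocyte and 0 of 6 leukocyte markers did. Of 5 fibroblast markers 3 passed, with COL1A1 and COL1A2 below the filter. The summed fibroblast signal was 2348 to 2840 with DMSO and 2640.2 to 3414 with THZ1. It was 1531 to 1848 with siCtrl and 719 to 959 with siMITF. Most of this sum came from LUM on every array. LUM had 2066.8 and 2476 with DMSO, 2324.8 and 2983.3 with THZ1, 1353.8 and 1639.3 with siCtrl, and 809.75 and 613.16 with siMITF. Whether the sum reflects fibroblasts was not tested, nor was its part in the results. In bulk RNA, fewer expressing cells and less RNA per cell cannot be told apart.

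With siMITF most of the 45 mRNAs fell per cell, much as most mRNAs did. On the relative scale the group split. Most pump subunits were low, and of 12 genes of the lysosomal lumen 3 were lower and 3 higher. Per cell, 33 of 45 were lower and 0 higher, against 63.4% lower and 0.326% higher among all tested genes (63.7% in either direction), and the median change was -0.77 against -0.63. Among the 806 tested genes at or above the members' median signal 76.3% were lower per cell, so the members' 73.3% is near the background. Both siMITF arrays were below both siCtrl arrays in 41 members per cell and above in 0, against 89% and 0.929% of all tested genes. On the relative scale, 18 were lower (40%) and 6 higher (13.3%), 24 in all, against 24.7% and 19.5% of all tested genes and 44.2% in either direction. The median was -0.14 against 0.0014 for all. Among those 806 bright genes 33.4% were lower and 14.9% higher. With quantile normalization the split was 12 lower and 12 higher, against 19.2% and 18.7% of all tested genes. Without the filter it was 23 lower and 3 higher (22.2% and 13.6% of all genes), and at the 60th percentile filter 17 and 9 (25.7% and 24.6%). The per-cell count fell without siCtrl replicate 2 or siMITF replicate 2, as did the count over all tested genes. The members' median was then -0.59 in both runs, against -0.51 and -0.49 over all tested genes. With each gene's own variance 0 members passed (27 at an unadjusted p under 0.05), and 0 of all 11947 tested genes did.

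With THZ1 no member's change per cell was larger than the test could tell from the spread between arrays, while most members lay above the median gene. Per cell, 0 of 45 passed limma's test (0 at an unadjusted p under 0.05). Among all tested genes 10% were lower and 0.0753% higher (10.1% in either direction). With each gene's own variance 0 of all 11947 tested genes passed, so the members' 0 in that run says nothing about them. Both THZ1 arrays lay below both DMSO arrays per cell in 2 members and above in 1, against 30% and 0.871% of all tested genes. The changes ran from -0.46 to 0.45 with a median of 0.05, where the median over all tested genes was -0.16. Relative to the median gene, 27 (60%) were higher and 1 lower, against 17.7% and 21.1% of all tested genes and 38.8% in either direction. Among the 806 genes of like or greater brightness, however, 59.9% were higher and 4.71% lower, with a median of 0.25 that matches the members' median of 0.25. The share of members called higher is therefore near that of bright genes in general. The count was 12 higher and 1 lower with quantile normalization, against 20.7% and 18.4% of all tested genes. Without the filter it was 5 higher and 0 lower, against 2.61% and 11.5%. Of the 28 calls, 4 passed under every alternative: ATP6V1D, GABARAPL2, MAP1LC3B and LAMP2. Fewer were called higher when any DMSO or THZ1 array was left out, among members and among all tested genes. The members' median relative change in these runs was 0.24 to 0.28.

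**Figure D1:**
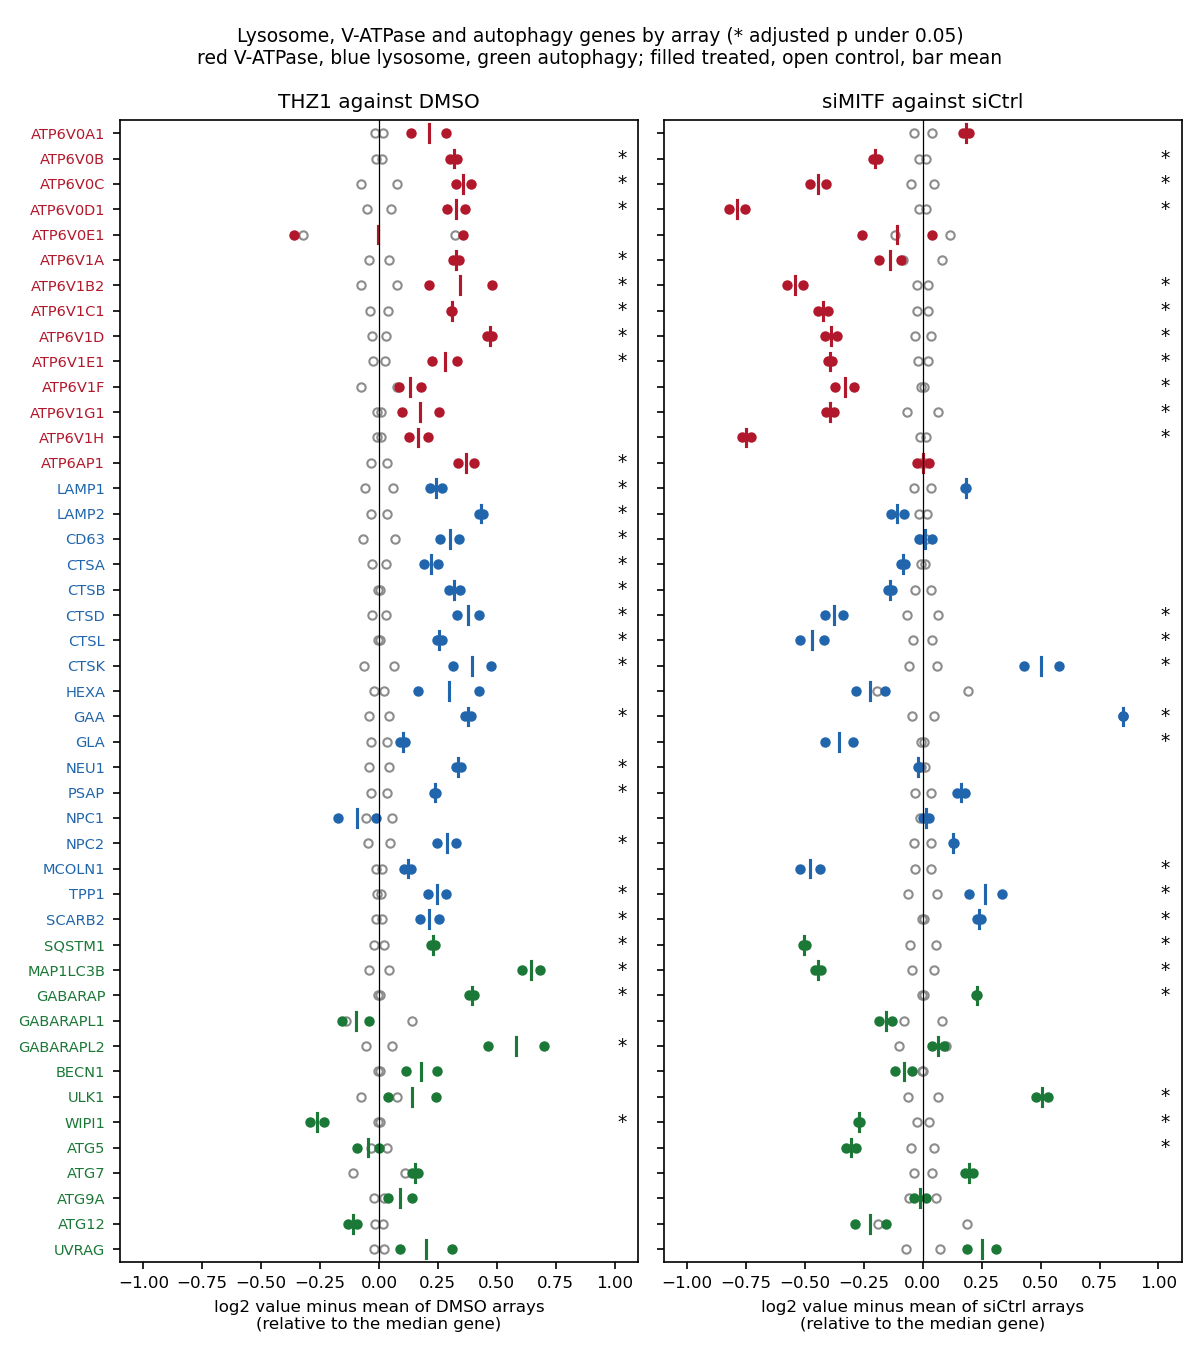
Log2 values of the 45 genes on each array relative to the median gene, minus the mean of the control arrays (DMSO at left, siCtrl at right); filled points are treated arrays, open points control arrays, bars the mean change, and asterisks mark adjusted p under 0.05. With THZ1, 38 genes have both treated arrays above both control arrays and 2 below (38% and 32% of all tested genes). With siMITF, 25 have both below and 12 both above (38% and 35.3%). These shares were not counted among bright genes.

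The V-ATPase subunits were mostly lower with siMITF on the relative scale. There, 10 of 14 (71.4%) were lower and 0 higher, against 24.7% and 19.5% of all tested genes and 33.4% and 14.9% of the 806 bright genes, with a median relative change of -0.39. Per cell 13 of 14 (92.9%) were lower, against 63.4% of all tested and 76.3% of bright genes. Under quantile normalization 8 were lower and 2 higher, against 19.2% and 18.7% of all tested genes. At the 60th percentile filter 9 were lower and 1 higher, against 25.7% and 24.6%. With THZ1, 9 of 14 (64.3%) were higher and 0 lower on the relative scale, against 17.7% higher among all tested genes and 59.9% among bright genes, so that share is near the background of bright genes. With quantile normalization 4 were higher and 0 lower, against 20.7% and 18.4% of all tested genes. Per cell the THZ1 changes of these subunits ran from -0.20 to 0.27, and none of the 14 passed.

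The V0 sector holds the proton path. ATP6V0D1, the subunit that joins V0 to the central stalk, had the largest fall of all members with siMITF. The siMITF arrays read 560.0 and 437 and the siCtrl arrays 1253 and 1460.4. Both siMITF arrays lay far below both controls. The log2 change per cell was -1.42 (SE 0.25, n = 2 per group, adjusted p = 4.88e-07), which is 2.68-fold lower, and the relative change was -0.79 (SE 0.074, adjusted p = 5.51e-05). Another 5 of its probe sets gave relative changes of -0.69 to -0.83, while a dim one (mean signal 53.5) gave 0.08. With THZ1 its signal was 1511 and 2111 against 1420.5 and 1881 with DMSO. These ranges overlap, and the relative change was 0.33 (adjusted p = 0.00683). ATP6V0C, the proteolipid of the rotor ring, had relative changes of -0.44 with siMITF and 0.36 with THZ1, and ATP6V0B, another ring subunit, -0.20 and 0.32; all of these passed. The siMITF call of ATP6V0B was lost when any of the 4 siCtrl and siMITF arrays was left out and with quantile normalization, though its other probe sets gave -0.37 to -0.46. ATP6V0A1, the stator and proton channel subunit, had 0.18 with siMITF and 0.21 with THZ1 and passed in neither. ATP6V0E1 had -0.11 with siMITF and -0.0029 with THZ1 on a probe set whose control arrays themselves differed, at 4630.5 and 3647 with DMSO; the other 3 probe sets of this gene gave 0.33 to 0.53 with THZ1.

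The V1 sector carries out ATP hydrolysis. With siMITF all 8 measured V1 subunits were lower per cell, against 63.4% of all tested genes. On the relative scale 7 of 8 (87.5%) were lower, against 24.7%. On the relative scale with quantile normalization 6 of 8 were lower, against 19.2%. On the relative scale each of the 8 had both siMITF arrays below both siCtrl arrays, as did 38% of all tested genes. ATP6V1H, which regulates the assembled pump, had signals of 355 and 282 with siMITF against 785 and 920.2 with siCtrl. The groups were far apart: 2.61-fold lower per cell (adjusted p = 9.62e-07), with a relative change of -0.75 (SE 0.069, adjusted p = 5.19e-05). ATP6V1B2, a subunit of the ATP-binding ring, had 605 and 473 against 1106 and 1361, a relative change of -0.54 (adjusted p = 0.00171), and -1.07 and -1.12 on its other probe sets. ATP6V1D of the central stalk had 698 and 553 against 1144 and 1431, a relative change of -0.39 (adjusted p = 0.00178). ATP6V1C1 (-0.42), ATP6V1E1 (-0.39), ATP6V1G1 (-0.39) and ATP6V1F (-0.33), which belong to the stalks, passed too. The catalytic subunit ATP6V1A had -0.14 (adjusted p = 0.194) and did not. With THZ1, ATP6V1D had the largest relative rise among the pump members: 1732.5 and 2260.1 against 1443 and 1859, a relative change of 0.47 (SE 0.070, adjusted p = 6.93e-04) with per-cell ranges that overlap. ATP6V1H had 856 and 1074 with THZ1 against 888 and 1085 with DMSO, nearly the same signals, and a relative change of 0.17 (adjusted p = 0.0825). The THZ1 reading of ATP6V1C1 depended on the probe set, at 0.31 on the tested one, 0.29, -0.15 and -0.06 on others above the filter and -0.32 on a dim one below it. It was -0.02 when every gene was taken as the mean of all its probe sets, which also changes the centring of the arrays. ATP6AP1, an accessory subunit needed for pump assembly, had relative changes of 0.00024 with siMITF (adjusted p = 0.998) and 0.37 with THZ1 (adjusted p = 0.00288).

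**Figure D2:**
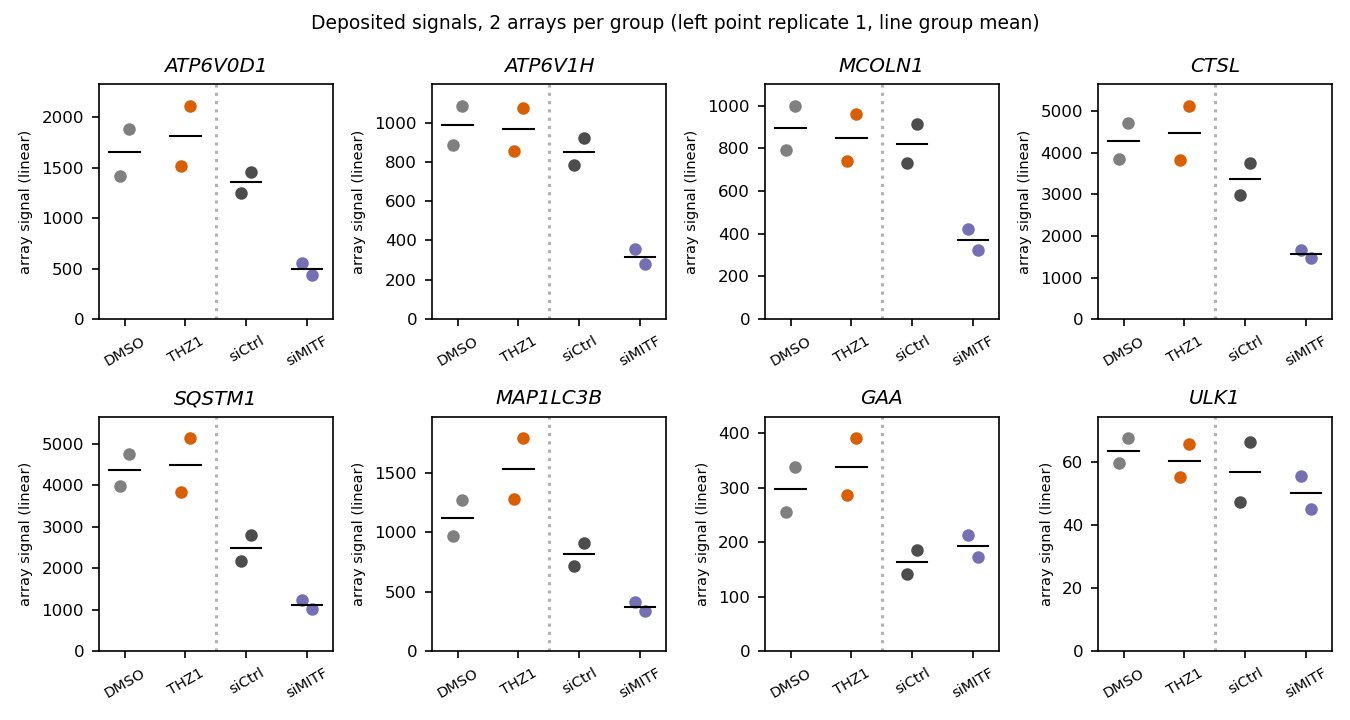
Deposited array signals (linear axis from 0) of 8 genes in the DMSO, THZ1, siCtrl and siMITF groups; points are the 2 arrays of each group and lines their mean, and the dotted line parts the drug pair from the siRNA pair, whose levels are not compared. The ATP6V0D1, ATP6V1H, MCOLN1, CTSL, SQSTM1 and MAP1LC3B signals are lower with siMITF than with siCtrl on every array, and those of GAA and ULK1 overlap.

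Among 6 genes for lysosomal membrane proteins, 4 (66.7%) were lower per cell with siMITF, near the 63.4% of all tested genes, and on the relative scale MCOLN1 was lower and SCARB2 higher. MCOLN1, the calcium channel of the lysosomal membrane, had signals of 422 and 324 with siMITF against 730.1 and 915 with siCtrl. The arrays did not overlap. It was 2.16-fold lower per cell (adjusted p = 7.39e-05), its relative change was -0.48 (SE 0.071, adjusted p = 6.17e-04), and another probe set gave -0.62. With THZ1 it had 739.8 and 963 against 795 and 999.7, overlapping signals and a relative change of 0.12 (adjusted p = 0.20).

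LAMP1, a major glycoprotein of the lysosomal membrane, had 3119 and 2579 with siMITF against 3649 and 4126 with siCtrl. Its siMITF arrays were lower, but the per-cell change of -0.45 did not pass (adjusted p = 0.0903), and on the relative scale it had 0.18 on the tested probe set and -0.04 and -0.44 on others. With THZ1 LAMP1 had 4814 and 6142 against 4953 and 5623.5, a relative change of 0.24 (adjusted p = 0.0269) that was -0.03 with quantile normalization. LAMP2, its relative, which also takes part in chaperone-mediated autophagy, had 2838.5 and 3803 with THZ1 against 2574.5 and 3025 with DMSO. The ranges overlap, and the relative change was 0.43 (SE 0.070, adjusted p = 0.00108). SCARB2, the receptor that carries beta-glucocerebrosidase to the lysosome, had 1929 and 1568 with siMITF against 2103 and 2493, a fall of 0.39 per cell that did not pass and a relative change of 0.24 that did (adjusted p = 0.0185), with -0.0014 to 0.31 on its other probe sets. The relative call of SCARB2 was lost with the mean of probe sets (0.09), without the filter (0.06) and when any of the 4 arrays was left out. The tetraspanin CD63 had 0.01 with siMITF and 0.30 with THZ1 on the relative scale, the second of which passed, and NPC1, which exports cholesterol, had 0.01 and -0.09, neither of which passed.

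Genes for proteins of the lysosomal lumen were called in shares near the background with siMITF. Of 12, 7 were lower (58.3%) and 0 higher per cell, against 63.4% and 0.326% of all tested genes, and 3 were lower (25%) and 3 higher (25%) on the relative scale, against 24.7% and 19.5%. CTSL, a cysteine protease, had 1651 and 1458 with siMITF against 2983 and 3758 with siCtrl. The arrays did not overlap, at 2.15-fold lower per cell and -0.47 on the relative scale (adjusted p = 7.61e-04). CTSD, an aspartic protease, had -0.38 and GLA, the alpha-galactosidase, -0.36 on the relative scale (adjusted p = 0.00371 and 0.00349); neither passed with quantile normalization. CTSA, CTSB and HEXA were lower per cell, as was NEU1, but had -0.02 to -0.22 on the relative scale, and none of them passed there; NEU1 had 0.19 with quantile normalization.

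GAA, the acid alpha-glucosidase that degrades glycogen, was the member farthest above the median gene with siMITF. Its signals of 213 and 173 overlapped the 143 and 186 of siCtrl, so its level per cell was not distinguishable (log2 change 0.22, adjusted p = 0.404). On the relative scale it had 0.85 (SE 0.072, adjusted p = 3.28e-05), and 0.99 with quantile normalization. CTSK, a cysteine protease that has been reported as an MITF target in bone-resorbing cells, also had 0.50 on the relative scale (adjusted p = 0.00184), with signals of 40.5 and 26.1 against 35.01 and 39.8. Those signals are close to the filter at 39.2, and the dimmest decile of tested genes had a median of 0.23. TPP1, a peptidase, had 1574 and 1176 against 1543 and 2004 and a relative change of 0.27 (adjusted p = 0.0218), but its other probe sets gave -0.40 to 0.05, and taking every gene as the mean of its probe sets gave -0.15. Of the sphingolipid activator precursor PSAP and the cholesterol carrier NPC2 neither passed on either scale with siMITF. With THZ1, 10 of these 12 (83.3%) were higher on the relative scale, against 17.7% of all tested and 59.9% of bright genes. All 12 had both THZ1 arrays above both DMSO arrays on that scale (38% of all tested genes did). That last share was not counted among bright genes. The relative changes of the 12 ran from 0.10 for GLA to 0.39 for CTSK, which had signals of 52.1 and 64.6 with THZ1 against 45.004 and 52.6, ranges that overlap. Per cell none of the 12 passed with THZ1, and with quantile normalization CTSA and PSAP had -0.03 and -0.06.

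Members of the ATG8 family, ubiquitin-like proteins that mark autophagosomes, did not all move one way: on the relative scale MAP1LC3B, GABARAP and GABARAPL2 rose with THZ1, and MAP1LC3B fell with siMITF. MAP1LC3B, the source of the LC3B marker, had 1279 and 1793 with THZ1 against 967 and 1271 with DMSO. Both THZ1 arrays were above both DMSO arrays, if barely, and it was the only member for which that held per cell (0.871% of tested genes). The per-cell change of 0.45 did not pass (adjusted p = 0.321), and the relative change of 0.64 was the largest rise among the members (SE 0.075, adjusted p = 1.41e-04), with 0.44 and 0.37 on other probe sets. With siMITF the gene had 411 and 343 against 718 and 915 with siCtrl, a clear separation. It was 2.11-fold lower per cell with a relative change of -0.45 (adjusted p = 0.00120), though 1 of its other probe sets gave 0.03 and the other -0.35. The tested probe set is of the _x_at type, which can detect related sequences, and MAP1LC3B2 is a close relative.

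GABARAPL2 rose on the relative scale with THZ1 as well, at 1259.5 and 1973 against 1131 and 1289, a relative change of 0.58 (SE 0.10, adjusted p = 0.00164) with 0.43 to 0.51 on its other probe sets. Its per-cell ranges overlap because the lower THZ1 array lies inside the DMSO range. With siMITF it had 0.06 on the tested probe set but -0.12 to -0.26 on the others, and -0.21 when every gene was taken as the mean of its probe sets with the arrays centred accordingly. GABARAP had 3464 and 4518.5 with THZ1 against 3106 and 3848, a relative change of 0.39 (adjusted p = 0.00146) that no longer passed with the mean of probe sets (0.21) or quantile normalization (0.14). With siMITF GABARAP had 2276.5 and 1881.5 against 2503.5 and 3002, a relative change of 0.23 (adjusted p = 0.0186). That call was lost with the mean of probe sets (0.07), without the filter (0.05) and when any of the 4 arrays was left out. GABARAPL1 behaved otherwise under THZ1, with 192 and 282 against 289 and 292. Both arrays lay below the DMSO arrays, but the changes of -0.30 per cell and -0.10 on the relative scale did not pass. SQSTM1, the receptor p62 that links ubiquitinated cargo to ATG8 proteins, had 1229 and 1018 with siMITF against 2184 and 2808 with siCtrl, 2.20-fold lower per cell (adjusted p = 5.09e-05) with a relative change of -0.50 (SE 0.072, adjusted p = 4.73e-04). All 4 of its other probe sets were also below 0, at -0.50 to -0.74. With THZ1 it had 3834 and 5139 against 3978 and 4746.5, overlapping signals, and a relative change of 0.23 (adjusted p = 0.0289) that was -0.0078 with quantile normalization.

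**Figure D3:**
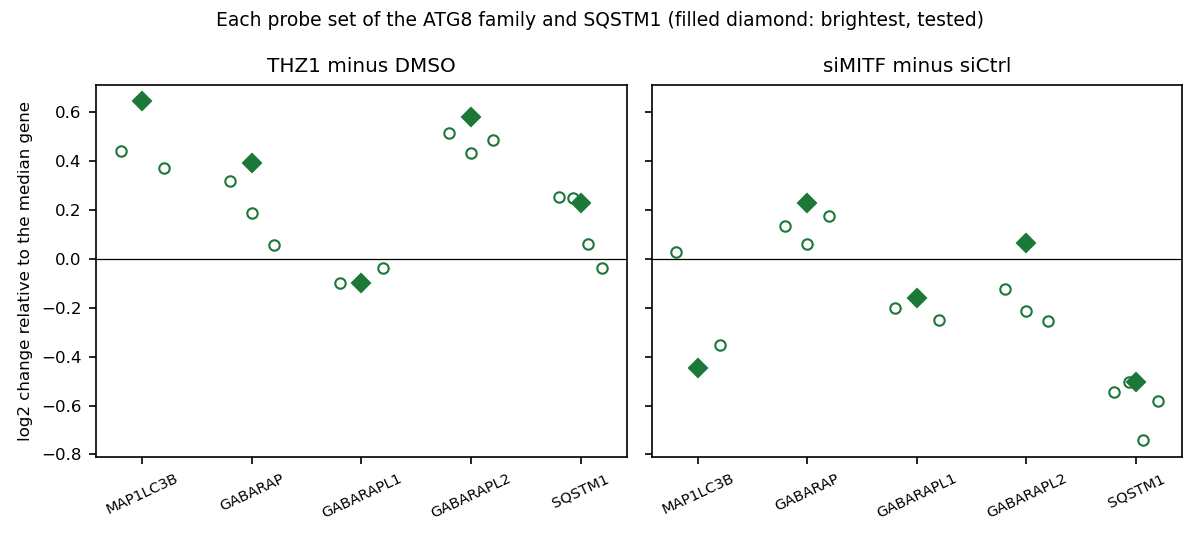
Log2 change relative to the median gene (vertical axis) for every probe set above the signal filter of MAP1LC3B, GABARAP, GABARAPL1, GABARAPL2 and SQSTM1, with THZ1 against DMSO at left and siMITF against siCtrl at right; filled diamonds are the tested, brightest probe set and open circles the others. All GABARAPL2 probe sets lie above 0 with THZ1, and all SQSTM1 probe sets lie at -0.50 or below with siMITF.

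The genes that start autophagosomes showed no shared direction. WIPI1, which binds phosphatidylinositol 3-phosphate on the forming membrane, was the 1 member that fell on the relative scale with THZ1. Its signals were 1209.8 and 1673 with THZ1 against 1765.5 and 2192 with DMSO. Both THZ1 arrays were below both DMSO arrays, the per-cell change of -0.46 did not pass (adjusted p = 0.287), and the relative change was -0.26 (SE 0.069, adjusted p = 0.0132), with -0.32 on another probe set. It did not pass without DMSO replicate 1, DMSO replicate 2 or THZ1 replicate 1. With siMITF WIPI1 had 873 and 712 against 1338 and 1655, a relative change of -0.27 (adjusted p = 0.0101) that was -0.05 with quantile normalization. ULK1, the kinase that initiates autophagy, had 55.6 and 45.2 with siMITF against 47.4 and 66.4. The signals overlap and are dim, and the relative change was 0.51 (adjusted p = 0.00192). BECN1 and UVRAG, of the phosphatidylinositol 3-kinase complexes, and the scramblase ATG9A passed in neither direction on the relative scale under either treatment. BECN1 (-0.71) and ATG9A (-0.64) were lower per cell with siMITF. Of the conjugation genes, ATG5 was lower with siMITF on both scales (-0.94 and -0.30, the second of which did not pass with quantile normalization), ATG12 was lower per cell (-0.85), and ATG7, the activating enzyme, did not pass. None of these 3 passed with THZ1.

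The contrast between the treatments was tested as the difference of the 2 changes, which share no arrays. Relative to the median gene the THZ1 change exceeded the siMITF change in 24 members and was below it in 2, GAA (-0.47) and ULK1 (-0.37), against 21.4% and 20.2% of all tested genes (41.6% in either direction). Among genes at or above the members' median signal the shares were 55.7% and 3.85%. The V-ATPase gave 12 of the 24 (85.7% of its 14), with a median difference of 0.62, where lysosomal members had 0.30 and autophagy members 0.11. ATP6V0D1 had the largest difference (1.12, adjusted p = 5.71e-05), followed by MAP1LC3B (1.09, adjusted p = 6.79e-05). With quantile normalization 13 members were above and 4 below, against 20.4% and 19.1% of all tested genes, and the V-ATPase median was 0.26. Per cell, 14 members differed and 0 in the other direction, against 9.84% and 0.946% of all tested genes (10.8% in either direction) and 23.3% higher among the 806 bright genes. That count depended on which array was left out, as did the count over all tested genes. With all arrays the members' median per-cell difference was 0.79, against 0.44 over all tested genes. It was 0.68 against 0.29 without DMSO replicate 1. Without siCtrl replicate 2 it was 0.63 against 0.33, and without siMITF replicate 2 it was 0.64 against 0.30. The highest was 1.0005 against 0.64, without THZ1 replicate 1. The lowest was 0.58 against 0.24, without THZ1 replicate 2. Of the 45 genes, 11 were called higher with THZ1 and lower with siMITF on the relative scale (24.4%, against 5.06% of all tested genes). They were ATP6V0B, ATP6V0C, ATP6V0D1, ATP6V1B2, ATP6V1C1, ATP6V1D, ATP6V1E1, CTSD, CTSL, SQSTM1 and MAP1LC3B. WIPI1 was lower in both (2.22%, against 6.24% of all tested genes), and CTSK, GAA, TPP1, SCARB2 and GABARAP were called higher in both (11.1%, against 3.69%). These joint shares were not counted among the 806 bright genes. Of those, 59.9% were higher and 4.71% lower with THZ1 on the relative scale. With siMITF 33.4% of them were lower and 14.9% higher.

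**Figure D4:**
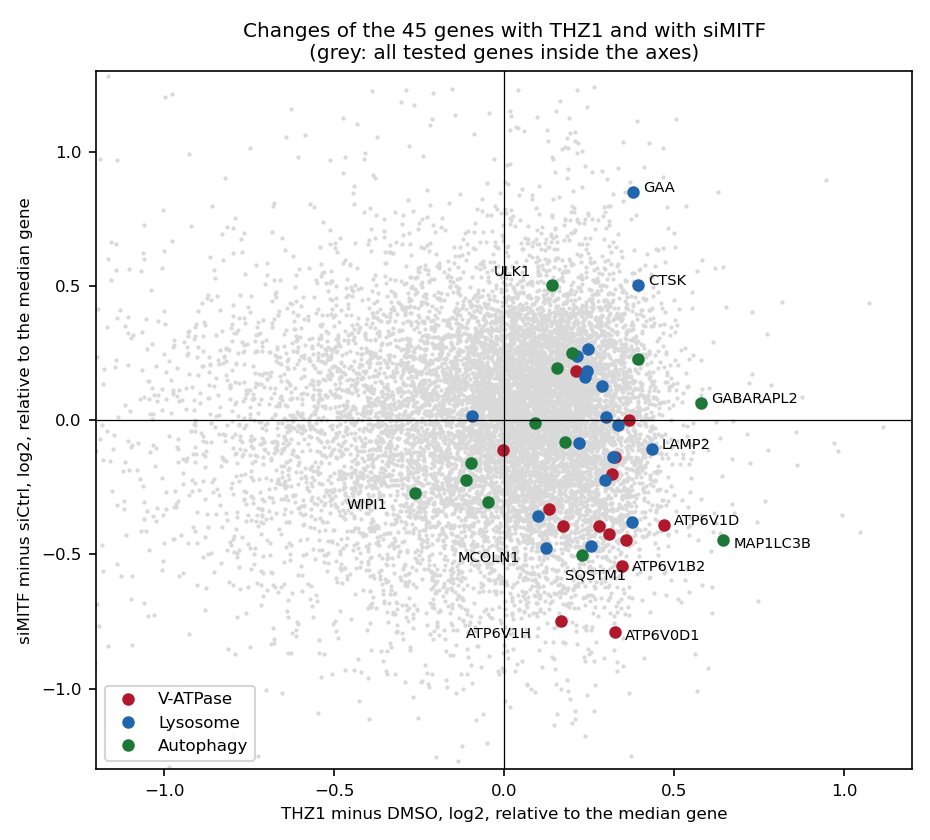
Log2 change relative to the median gene with THZ1 against DMSO (horizontal axis) and with siMITF against siCtrl (vertical axis); coloured points are the 45 genes by class and grey points the other tested genes inside the axes. V-ATPase points lie mostly at lower right, led by ATP6V0D1 at 0.33 and -0.79, and WIPI1 lies at lower left.

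**Figure D5:**
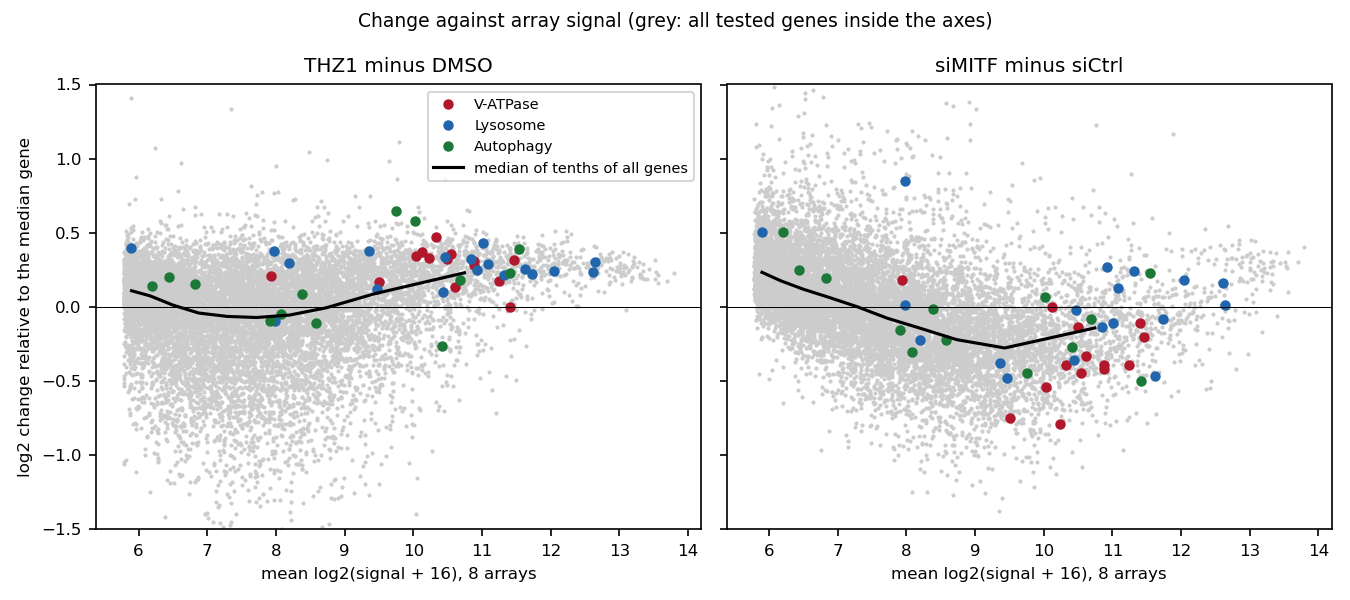
Log2 change relative to the median gene (vertical axis) against mean log2(signal + 16) over 8 arrays (horizontal axis) for THZ1 at left and siMITF at right; grey points are tested genes, coloured points the 45 genes, and the line joins the medians of signal deciles of all tested genes. With THZ1 the brightest decile, which holds 29 of the 45 genes, has a median of 0.23; with siMITF the dimmest decile has 0.23 and the brightest -0.14.

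Changes on the relative scale moved with array signal over all genes, as the plot against mean signal shows. The brightest decile of tested genes held 29 of the 45 members and had a median of 0.23 with THZ1, against a lowest decile median of -0.07. With siMITF the medians were 0.23 in the dimmest decile, -0.28 in the next to brightest and -0.14 in the brightest. The V-ATPase median of -0.39 with siMITF lies below all of these, and the THZ1 medians of V-ATPase (0.31), lysosomal (0.27) and autophagy members (0.15) lie around the value of the brightest decile.

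Other genes of the pathway, from lists of general knowledge, were mixed in direction. Of 124 tested, 36 were lower (29%) and 18 higher (14.5%) with siMITF on the relative scale, and 14 were lower (11.3%) and 37 higher (29.8%) with THZ1. Over all tested genes these shares were 24.7% and 19.5% with siMITF and 21.1% and 17.7% with THZ1. Per cell 92 (74.2%) were lower with siMITF and 5 (4.03%) with THZ1, against 63.4% and 10%, and 0 were higher with either. The counts and changes by list that follow are on the relative scale only. Among 11 further V-ATPase genes, which include tissue-specific isoforms and assembly factors, 3 were lower (27.3%) and 2 higher (18.2%) with siMITF, with a median of 0.04. ATP6V1E2 (0.32) and the a2 subunit ATP6V0A2 (-0.29) had the lowest adjusted p. Of 40 further lysosomal enzymes and carriers, 8 were lower (20%) and 5 higher (12.5%) with siMITF: the acid ceramidase ASAH1 had -0.97 (adjusted p = 2.27e-05), the alpha-mannosidase MAN2B1 0.69 and CLN3 -0.45. With THZ1, 2 of these were lower (5%) and 14 higher (35%), and SLC38A9, an arginine sensor of the lysosome, had -1.001 (adjusted p = 1.04e-04).

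Sorting genes were lower with siMITF in 8 of 18 cases (44.4%) and higher in 3 (16.7%). Those with the lowest adjusted p were GNPTAB, which makes the mannose 6-phosphate tag (-0.79), the retromer subunit VPS26A (-0.65) and the adaptor GGA2 (-0.57). With THZ1, 2 were lower (11.1%) and 8 higher (44.4%), with GGA3 at -0.54. Of 38 further autophagy genes, 10 were lower (26.3%) and 7 higher (18.4%) with siMITF, with ATG13 at 0.73, VMP1 at -0.65 and the receptor OPTN at -0.55. With THZ1, 4 were lower (10.5%) and 8 higher (21.1%) (PIK3R4 -0.52, PLEKHM1 -0.50, BNIP3 0.57). Of 17 genes of lysosomal nutrient signalling and the MiT/TFE family, 7 were lower (41.2%) and 1 higher (5.88%) with siMITF. The Rag GTPases RRAGC (-0.73) and RRAGD (-0.64), which recruit mTORC1 and TFEB to the lysosome, were low beside MITF itself (-0.72), and TFEB was the 1 higher gene (0.31, adjusted p = 0.0130). With THZ1, 5 were lower (29.4%) and 4 higher (23.5%), with the folliculin partner FNIP1 at -1.08 (adjusted p = 3.96e-04), RPTOR at -0.39 and LAMTOR4 at 0.32.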

How the data were processed

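The deposited values are array intensities on a linear scale, which the authors summarised with MAS5 per the submitters' processing notes (no version) and scaled by cell number, as the design text of the series says; the calculation is not given in the sources used here. Per the labels' protocols, 100 ng of RNA with ERCC spike-in RNA was used per array. Of 49495 probe sets, 45278 carried 1 symbol, updated by gene ID to RefSeq (GRCh38.p14) where matched (45208). All analyses used log2(value + 16). The brightest probe set stood for each gene, tested at a mean signal of 39.2 or more (the 40th percentile). Of the 45 member probe sets 7 end in _x_at and 15 in _s_at. limma 3.58.1 in R 4.3.3 fitted 1 mean per group over 8 arrays with empirical Bayes variances and Benjamini-Hochberg adjustment. Per cell, the estimated prior degrees of freedom were infinite, which gives every gene an SE of 0.25 and can make per-cell p-values too small, and 5.97 beside 4 residual on the relative scale (median SE 0.084). That scale centres each array by the median, over tested genes, of the gene's value minus its mean over arrays. Only the fit on the relative scale was tried on simulated data, in which every gene had the same spread, unlike the real arrays. No set test was made. The members and lists were chosen with earlier results of these data known. Alternatives were other pseudocounts, filters, probe set rules, variances, scalings, a replicate block and leaving out each array. All members may be named, and signals on each array are given for 19: the 6 largest passing falls and rises per treatment on the relative scale with treated arrays outside the control range, the ATG8 family, SQSTM1, LAMP1, MCOLN1, CTSK and ATP6V1H. The number of arrays limits the precision.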

Additional observations from a re-analysis of the deposited data

How the results depend on the processing

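With 2 arrays per group and a shared array offset, per-cell counts depended on single arrays, and counts on the relative scale on the normalization. Leaving out 1 array at a time gave 0 to 0 members called with THZ1 per cell, 13 to 33 with siMITF per cell, 0 to 27 for the difference per cell, and 14 to 21, 19 to 22 and 22 to 27 for THZ1, siMITF and the difference relative to the median gene. Other counts that moved by over 1.5 times were, for siMITF per cell, 0 with each gene's own variance; for the difference per cell, 22 with pseudocount 64, 22 with the mean of probe sets, 0 with own variances and 2 after centring on ERCC probe sets; for THZ1 relative to the median gene, 5 without the filter and 13 with quantile normalization; and for the difference on that scale, 17 with quantile normalization. Counts over all tested genes also moved when 1 array was left out. Per cell, the median siMITF change was then -0.92 to -0.59 for members and -0.77 to -0.49 over all tested genes. For the difference it was 0.58 to 1.0005 and 0.24 to 0.64. Members' medians on the relative scale were 0.24 to 0.28 for THZ1, -0.15 to -0.08 for siMITF and 0.31 to 0.40 for the difference. Over all tested genes they were 0.03 to 0.04, -0.0049 to -0.0026 and 0.0002 to 0.02. With own variances 0 of all tested genes passed per cell in any comparison. For the difference per cell 15.2% of all tested genes were higher with pseudocount 64 and 14.8% with the mean of probe sets. After centring on ERCC probe sets 0.586% were. The cause of these shifts was not tested. Calls kept under every alternative run were 15 of 24 with siMITF and 4 of 28 with THZ1 relative to the median gene (ATP6V1D, GABARAPL2, MAP1LC3B, LAMP2), 12 of 26 for the difference on that scale, and 0 of 33 with siMITF per cell.

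Reversals were few. With the mean of probe sets ATP6V1C1 had -0.0192 and ATP6V0E1 0.30 with THZ1, and GABARAPL2 had -0.21 and TPP1 -0.15 with siMITF. With quantile normalization SCARB2 had -0.0141, SQSTM1 -0.00776, CTSA -0.0308, PSAP -0.0588 and LAMP1 -0.0261 with THZ1, NEU1 0.19 with siMITF, and the difference was -0.00159 for NEU1, -0.33 for WIPI1, -0.0245 for CTSA and -0.0342 for ATP6AP1. All are relative to the median gene.

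Same-numbered arrays had deviations correlated at r = 0.11 in the drug pair and -0.18 in the siRNA pair over all tested genes. A correlation over genes cannot see an offset that all genes of an array share. The log2 offsets of replicates 1 and 2 were 0.21 and 0.51 with DMSO and -0.04 and 0.37 with THZ1. They were -0.06 and 0.19 with siCtrl and -0.43 and -0.71 with siMITF. Whether the numbers pair the arrays is therefore not settled. With the replicate number as a block 0, 33 and 17 members were called per cell with THZ1, with siMITF and for the difference. Over all tested genes the shares lower and higher were 10.6% and 0.0837%, 64.8% and 0.352%, and 1.05% and 11.1%. Relative to the median gene 29, 25 and 25 members were called. There the shares of all tested genes lower and higher were 20.9% and 16.8%, 24% and 19.4%, and 19.8% and 21%. With the siMITF numbers crossed, an alternative chosen after seeing the data, 43 were called with siMITF per cell and 25 on the relative scale. In that run 91.7% of all tested genes were lower per cell. On the relative scale 25.5% were lower and 21% higher.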
